A study of Mus musculus with 48 samples.

Results

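The marrow stromal niche factors described here are 10 genes, Cxcl12, Kitl, Lepr, Vcam1, Il7, Angpt1, Ebf3, Pdgfrb, Pdgfra and Csf1, chosen by gene symbol from the 29801 genes of the table. All 10 were found under 1 identifier each, and 9 of them reached a mean of 1 FPKM over the mice and were tested among 13590 genes, while Il7 did not. Their mRNA was measured by RNA sequencing of whole tibia, bone and marrow ground together, in 12 male C57Bl6J mice. The mice formed 4 groups of 3. Aged CR mice, 15 to 18 months old at the start, and young CR mice, 10 weeks old, underwent caloric restriction (CR) for 8 weeks. The cut in food was 10% during week 1, 20% during week 2 and 40% for the remaining weeks, and the food was an NIH-31/NIA diet fortified with micronutrients. Aged AL and young AL mice of the same ages ate the NIH-31 diet ad libitum (AL), so the amount of food and its formula changed together and their parts cannot be told apart. The study's methods also describe an osteotomy of the right tibia during the diet and mice kept in single cages, and the sources used here do not say which tibia was sequenced. No group carries a mutation or a transgene. Each mouse is 1 column for its 4 technical repeats and counted as 1 replicate, so all p-values refer to variation among mice.

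Blood stem cells live in the marrow beside perivascular stromal cells that carry the leptin receptor, a population also known as CXCL12-abundant reticular cells. These cells make the chemokine CXCL12, which holds stem cells and B cell precursors in the marrow, and stem cell factor, the product of Kitl, which keeps KIT-bearing progenitors alive. They also make interleukin 7 for early B cells, and colony stimulating factor 1 for cells of the macrophage lineage. The transcription factors EBF3 and EBF1 keep the niche cells from turning into bone, and some of the same cells give rise to marrow adipocytes and osteoblasts. In whole bone, fewer cells of a type and less RNA per cell cannot be told apart, and every value below is a level in the mixture.

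The members spanned a wide range of levels on the FPKM scale (sequenced fragments scaled to transcript length and to the library's mapped reads). Cxcl12 (chromosome 6, 117168535 to 117181367, GRCm38, plus strand) had the highest level, 399 FPKM as the mean of 12 mice, and stood at rank 153 of the tested genes. Vcam1 (chromosome 3, 116109949 to 116129688, minus strand), which encodes an adhesion molecule of stromal cells, macrophages and endothelium, followed with 107 FPKM, at rank 629. The lowest Cxcl12 value, 234 FPKM, lay above the highest Vcam1 value, 155 FPKM, and all Vcam1 values lay above those of the next gene.

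Below this pair, most levels overlapped. Lepr (chromosome 4, 101717404 to 101815352, plus strand), the leptin receptor, averaged 11.5 FPKM, and Kitl (chromosome 10, 100015630 to 100100416, plus strand) averaged 9.04 FPKM. Angpt1 (chromosome 15, 42424723 to 42676977, minus strand), the ligand of the receptor TIE2, averaged 8.46 FPKM and Csf1 (chromosome 3, 107741048 to 107760469, minus strand) 8.03 FPKM. The growth factor receptor gene Pdgfrb (chromosome 18, 61045150 to 61085061, plus strand) averaged 5.82 FPKM and Ebf3 (chromosome 7, 137193673 to 137314445, minus strand) 4.04 FPKM. The values of each of these 6 overlapped those of the next gene down when all mice were pooled. Within a mouse, Lepr lay above Kitl in 10 of 12 mice, Kitl above Angpt1 in 5 and Angpt1 above Csf1 in 8, so Kitl, Angpt1 and Csf1 had no fixed order. Csf1 lay above Pdgfrb and Pdgfrb above Ebf3 in 12 of 12 mice, and Ebf3 above Pdgfra in 11. Pdgfra (chromosome 5, 75152292 to 75198215, plus strand), the second receptor of platelet-derived growth factors here, averaged 2.77 FPKM. Il7 (chromosome 3, 7569994 to 7613760, minus strand) was lowest at 0.674 FPKM, and its highest value, 0.982 FPKM, lay below the lowest of Pdgfra, 2.38 FPKM. All 10 are protein-coding genes. No member was listed at 0 in any mouse.

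**Figure D1:**
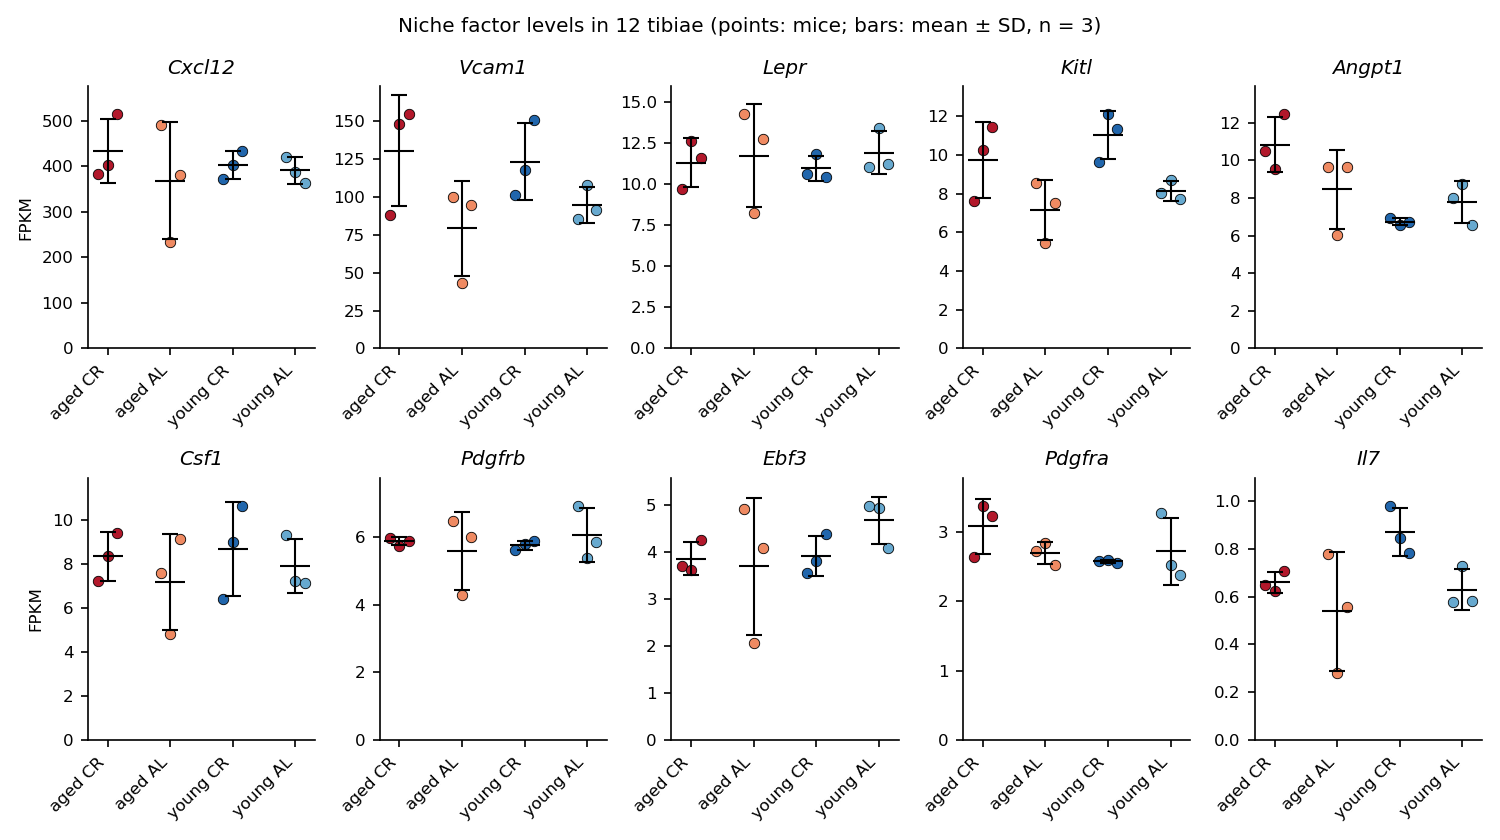
FPKM of the 10 niche factors in each mouse (points), with the mean and SD of 3 mice (bars), for aged CR, aged AL, young CR and young AL mice, on linear axes that start at 0. Cxcl12 lies between 234 and 514 FPKM and Il7 between 0.280 and 0.982 FPKM, and in the aged AL group 1 mouse is low for most genes.

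Promoter sequences of 6 members, in 7 windows because Lepr has a pair of start sites, were taken from RefSeq on GRCm38.p6 and are shown so that the start regions of genes known from the same niche cells can be compared. The 250 bases before each start were searched on both strands for 3 motifs. The letters were TCCCNNGGGA for the motif of EBF factors, GGGNNTNNCC for the kappa B motif of NF-kappa B, and TATAAA for the TATA box. No matches overlapped. The EBF motif had no match in the 7 windows and a match in 0.779% of 32851 promoters. The kappa B letters were found in 3 of the 7 windows and in 15.9% of all promoters, and TATAAA was found in the Kitl window and in 12.4% of all. The 30 bases around each match follow, 5′ to 3′ on the gene's strand, with the matched letters in capitals, at chr10:100015784-100015813 for Kitl, chr3:107760604-107760633 for Csf1, chr5:75152106-75152135 for Pdgfra and chr4:101717222-101717251 for Lepr.
Kitl: gggagggagctgTATAAAaagcgctggcgg
Csf1: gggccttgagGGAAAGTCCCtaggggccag
Pdgfra: tctgggggttGGGACTGGCCcccctgattg
Lepr: tagggggtaaGGGTCTTTCCtggttctctt
The Csf1 match lay on the opposite strand, so its capitals are the reverse complement of the searched letters. Counted from the RefSeq start, the TATAAA of Kitl began 25 bases before it and the kappa B letters lay 154, 135 and 175 bases before it in Csf1, Pdgfra and Lepr. The Kitl start of RefSeq, at 100015821, lies inside the gene as placed above from GENCODE, and the TATAAA is 166 bases inside that gene. The whole window of Cxcl12, the member with the highest level, held none of the 3 motifs, at chr6:117168285-117168534 on the plus strand.
Cxcl12: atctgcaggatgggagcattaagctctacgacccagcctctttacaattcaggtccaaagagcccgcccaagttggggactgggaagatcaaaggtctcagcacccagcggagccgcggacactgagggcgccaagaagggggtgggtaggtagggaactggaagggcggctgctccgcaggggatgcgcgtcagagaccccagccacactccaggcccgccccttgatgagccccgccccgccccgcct
It was 64.4% G and C with 14 CG pairs, and the 7 windows ranged from 54.4% to 80% G and C, against a median of 52.4% over all promoters. These matches are letters in a window and were not read as binding sites.

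Aged AL mouse 14 stood apart from the other mice in these genes. It had the lowest value of all 12 mice for 9 of the 10 members, with Pdgfra as the exception. On the log2(FPKM + 1) scale its members lay 0.54 below their means over the mice on average (a mean deviation of -0.54), while the other mice lay between -0.11 and 0.24. Vcam1 was 43.3 FPKM in this mouse, against 100 and 94.9 FPKM in the other aged AL mice. Its distance from its group mean over all tested genes was also the largest, with a root mean square of 0.29 on the log2 scale. Its osteoblast and osteocyte markers deviated by -1.24 and its early B cell markers by -1.52, below the other mice at -0.51 to 0.45 and -1.3 to 1.04. Its skeletal muscle markers deviated by 1.68, above the other mice at -1.39 to 1.38, although muscle had been removed from the bones. The part of these differences in the low niche factors of mouse 14 was not tested. Where leaving out this mouse moved a member's difference discussed below by more than 1.5 times or changed a call, the value without it is given as well. Some other differences moved too, such as the CR difference of Angpt1 over both ages, from 0.09 to -0.01.

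**Figure D2:**
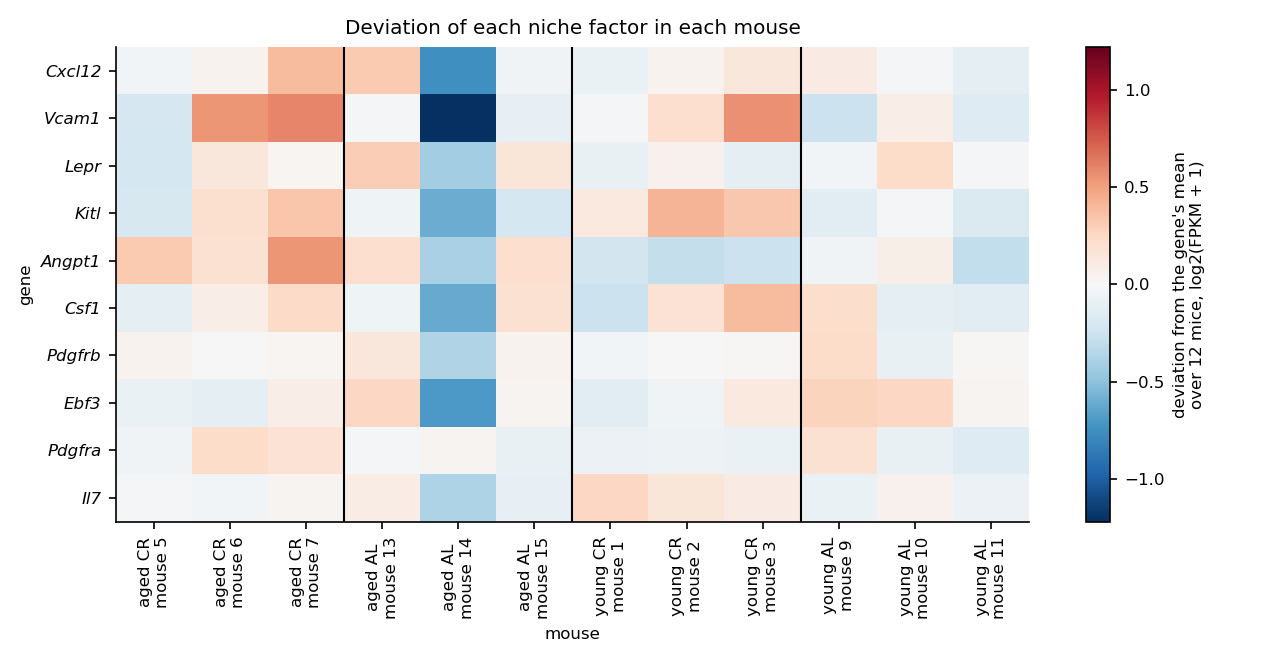
Deviation of each niche factor (rows) from its own mean over 12 mice on the log2(FPKM + 1) scale, in each mouse (columns, by group), with red above and blue below the mean. Aged AL mouse 14 is below the mean for 9 of 10 genes and reaches -1.22 for Vcam1.

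The first question of the design was what CR does to these genes. Kitl and Vcam1 had the largest differences between CR and AL mice, both in the direction of CR, and no member passed the test in any diet comparison. Over both ages 0 of 9 tested members had an adjusted p under 0.05 (limma, Benjamini-Hochberg over all tested genes), where 0.258% of all genes did. At an unadjusted p under 0.05 there were 2, Kitl and Vcam1, where 13.9% of all genes passed. In aged mice the same counts were 0 and 2, beside 0% and 7.72% of all genes, and in young mice 0 and 1, beside 0.0662% and 11% of all genes. The median log2 difference of the 9 members was 0.22 in aged mice and -0.05 in young mice, and that of all tested genes was 0.00 and 0.01. Without mouse 14 the median in aged mice was 0.00, and 4 members, Cxcl12, Csf1, Ebf3 and Pdgfrb, turned below 0. The members at an unadjusted p under 0.05 were then Kitl, Vcam1 and Ebf3 over both ages, the last lower with CR, beside 15.1% of all genes, and none in aged mice.

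Kitl had 7.60, 10.3 and 11.4 FPKM in aged CR mice, against 8.53, 5.47 and 7.50 FPKM in aged AL mice. It had 9.67, 12.1 and 11.4 FPKM in young CR mice, against 8.02, 8.73 and 7.74 FPKM in young AL mice. The young groups did not overlap, as was the case for 19.5% of all genes, and in aged mice CR mouse 5 fell between AL mice. Over both ages 5 of 6 CR mice had more than the highest AL mouse. The log2 difference was 0.40 over both ages (standard error 0.11, 95% confidence interval 0.15 to 0.65, limma, unadjusted p = 0.00515, adjusted p = 0.156), with 0.40 in aged and 0.39 in young mice (adjusted p = 0.606 and 0.412). It ranked 447 of the tested genes by p. Leaving out mouse 14 gave 0.32 over both ages (adjusted p = 0.172) and 0.24 in aged mice.

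Vcam1 had 88.3, 149 and 155 FPKM in aged CR mice, against 100, 43.3 and 94.9 FPKM in aged AL mice. It had 101, 118 and 151 FPKM in young CR mice, against 85.2, 108 and 91.7 FPKM in young AL mice. The groups overlapped at both ages, and 4 of 6 CR mice lay above every AL mouse. The log2 difference was 0.56 over both ages (standard error 0.22, 95% confidence interval 0.08 to 1.04, limma, adjusted p = 0.284). It was 0.76 in aged mice and 0.36 in young mice (adjusted p = 0.609 and 0.690). Without mouse 14 the difference in aged mice was 0.37, less by more than 1.5 times, and over both ages it was also 0.37 (adjusted p = 0.303).

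The chemokine and the receptor that define the niche cell showed smaller differences. Cxcl12 had 383, 403 and 514 FPKM in aged CR mice, against 490, 234 and 380 FPKM in aged AL mice, and 371, 403 and 432 FPKM in young CR mice, against 421, 387 and 364 FPKM in young AL mice. Its log2 difference over both ages was 0.17 with an interval of -0.17 to 0.50 (limma, adjusted p = 0.664), and 0.02 with an interval of -0.20 to 0.23 without mouse 14. Lepr had 9.69, 12.7 and 11.6 FPKM in aged CR mice, against 14.3, 8.23 and 12.7 FPKM in aged AL mice, and 10.6, 11.9 and 10.5 FPKM in young CR mice, against 11.1, 13.4 and 11.3 FPKM in young AL mice. Its log2 difference was -0.07 with an interval of -0.33 to 0.20 (adjusted p = 0.845), and -0.17 with an interval of -0.36 to 0.01 without mouse 14. All groups overlapped.

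Csf1, the growth factor of macrophages and osteoclasts, averaged 8.34 ± 1.10 FPKM in aged CR mice and 7.18 ± 2.20 FPKM in aged AL mice (SD, n = 3 each). In young mice it averaged 8.69 ± 2.13 FPKM with CR and 7.89 ± 1.22 FPKM with AL. Its log2 difference over both ages was 0.17 with an interval of -0.16 to 0.50, and 0.05 without mouse 14. Ebf3 averaged 3.86 ± 0.344 FPKM in aged CR mice and 3.69 ± 1.47 FPKM in aged AL mice, and 3.91 ± 0.429 FPKM in young CR mice and 4.67 ± 0.50 FPKM in young AL mice. Its log2 difference over both ages was -0.05, and it was -0.21 in young mice and 0.10 in aged mice, all with intervals that held 0. With mouse 14 left out, Ebf3 differed by -0.19 over both ages (interval -0.37 to -0.02, limma, adjusted p = 0.279) and -0.18 in aged mice. Pdgfrb and Pdgfra, which mark mesenchymal cells more widely than Lepr does, differed by 0.01 and 0.05 on the log2 scale, and Pdgfrb by -0.07 without mouse 14. The interval of Pdgfrb was -0.18 to 0.20 and that of Pdgfra -0.12 to 0.21, the narrowest of the members. Pdgfra varied least within groups, at a standard deviation of 0.12 on the log2 scale, and Vcam1 most, at 0.44, where the median of all tested genes was 0.15. This order depended on mouse 14, without which Pdgfrb varied least at 0.09, Ebf3 and Pdgfra stood at 0.12 each and Vcam1 at 0.30, with a median of 0.13 over all genes.

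Il7, below the level needed for the test, is given by its values. It had 0.650, 0.624 and 0.709 FPKM in aged CR mice, against 0.779, 0.280 and 0.556 FPKM in aged AL mice. It had 0.982, 0.844 and 0.785 FPKM in young CR mice, against 0.576, 0.728 and 0.581 FPKM in young AL mice. The young CR mice lay above all young AL mice, and also above all aged CR mice. Among the tested genes, 19.5% did not overlap in either direction for diet in young mice, and 18.5% for age in CR mice. The log2 difference of CR and AL was 0.20 in young mice and 0.12 in aged mice on the log2(FPKM + 1) scale, which understates changes of genes at this level. Without mouse 14 the difference in aged mice was 0.00.

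**Figure D3:**
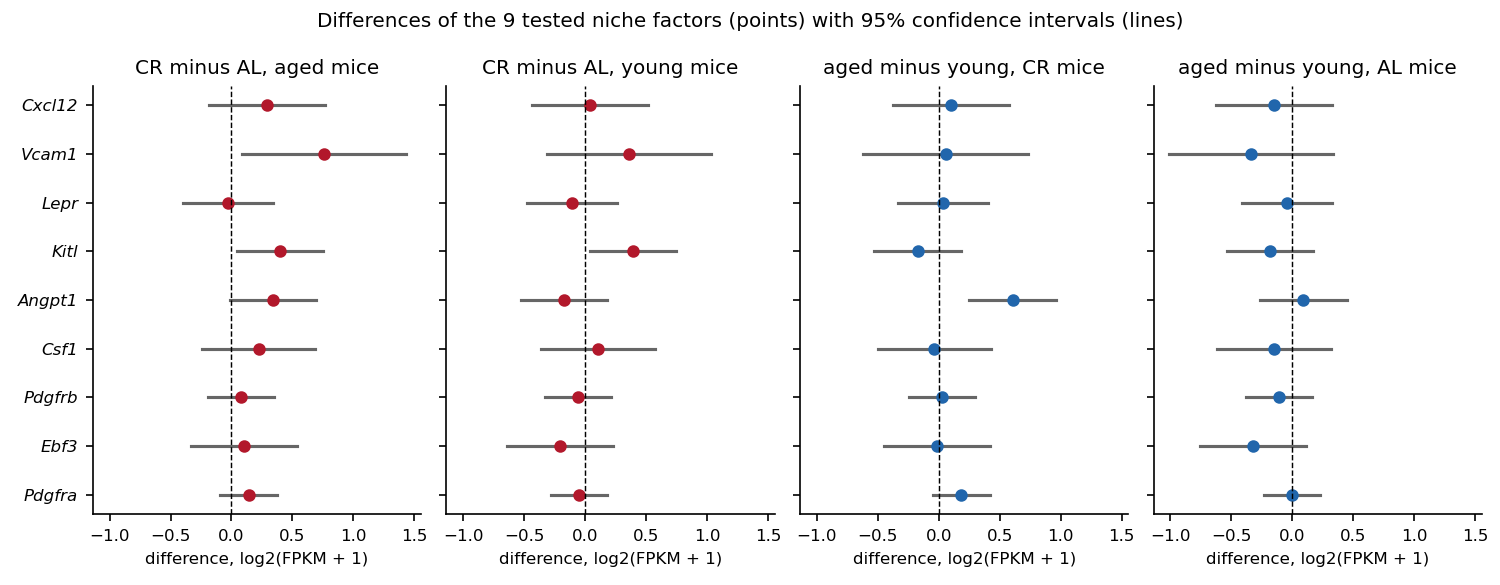
Log2(FPKM + 1) differences of the 9 tested niche factors (points) with 95% confidence intervals from limma (lines), for CR minus AL in aged and in young mice and for aged minus young in CR and in AL mice. Kitl lies at 0.40 and 0.39 for CR at the 2 ages, Vcam1 at 0.76 and 0.36, and Angpt1 at 0.61 for age in CR mice and 0.09 for age in AL mice.

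Because Lepr marks the niche cells, each other member was also divided by Lepr in the same mouse, a description chosen after the values were seen. Kitl per Lepr was 0.784, 0.812 and 0.988 in aged CR mice, against 0.598, 0.665 and 0.589 in aged AL mice. It was 0.910, 1.02 and 1.09 in young CR mice, against 0.724, 0.650 and 0.688 in young AL mice. All 6 CR mice were above all 6 AL mice, mouse 14 included. Vcam1 per Lepr was 9.12, 11.7 and 13.4 in aged CR mice, against 7.02, 5.26 and 7.45 in aged AL mice, and 9.51, 9.95 and 14.5 in young CR mice, against 7.70, 8.06 and 8.15 in young AL mice. Here too the 6 CR mice lay above the 6 AL mice. Of 13589 genes divided by Lepr in this way, 136 (1%) separated with CR higher and 4 (0.0294%) with CR lower, so ratios to Lepr leaned to CR over all genes. The separation depended on the gene divided by. With Cxcl12 or Pdgfrb below the line no member separated with CR higher in all 12 mice, where 0.169% and 0.464% of all genes did, and with Ebf3 the 2 that did were Vcam1 and Il7, beside 0.265% of all genes.

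**Figure D4:**
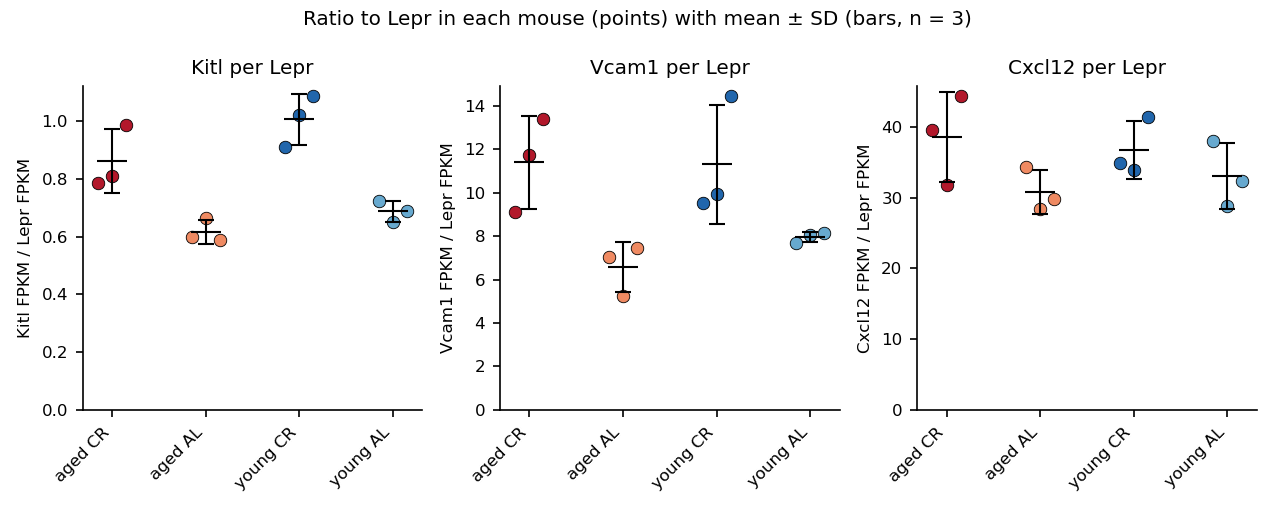
FPKM of Kitl, Vcam1 and Cxcl12 divided by the FPKM of Lepr in the same mouse (points), with the mean and SD of 3 mice (bars), for aged CR, aged AL, young CR and young AL mice. Kitl per Lepr runs from 0.784 to 1.09 in CR mice and from 0.589 to 0.724 in AL mice, Vcam1 per Lepr separates as well, and Cxcl12 per Lepr overlaps.

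VCAM1 is also carried by resident marrow macrophages, which take up iron and red cells, so a list of macrophage markers is given beside Vcam1. All 8 markers were detected in every mouse. Their sum ranged from 703 to 963 FPKM in aged CR mice, against 507 to 933 FPKM in aged AL mice, and from 548 to 590 FPKM in young CR mice, against 428 to 601 FPKM in young AL mice. For diet over both ages 0 of 8 passed the adjusted test and 8 of 8 had a positive difference, with a median of 0.29, and 0.38 without mouse 14, where that of all genes was 0.00. Spic, the transcription factor of iron-recycling macrophages, averaged 33.7 ± 4.84 FPKM in aged CR mice and 24.4 ± 1.43 FPKM in aged AL mice. In young mice it averaged 29.7 ± 1.41 FPKM with CR and 26.8 ± 1.53 FPKM with AL, a log2 difference of 0.29 over both ages (limma, adjusted p = 0.0977). Cd68, a lysosomal protein of macrophages, differed by 0.36 (adjusted p = 0.0655), and passed without mouse 14 (0.38, adjusted p = 0.0490). Aged CR mouse 5 had the highest macrophage deviation, 0.31, and the lowest Vcam1 of the CR mice. The markers of the list did not move together in mouse 5. Its C1qa, 277 FPKM, and Spic, 39.2 FPKM, were the highest of all mice. Its Cd163, a further marker of the list, was the lowest of the CR mice at 2.73 FPKM, against 10.4 and 10.3 FPKM in the other aged CR mice. Mouse 14 had the lowest Cd163 of all mice, as it had for Vcam1, but its other macrophage markers were not all low. Its C1qa was 206 FPKM, against 138 and 130 FPKM in the other aged AL mice. The mean deviation of its macrophage list was -0.03, against -0.26 and -0.23 in those mice. The part of macrophages in the Vcam1 level was not tested.

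The second question was whether the niche factors differ with age. Angpt1, which steadies vessels and stem cells through TIE2, stood out with higher values in aged CR mice. It had 10.5, 9.55 and 12.5 FPKM in aged CR mice, against 6.92, 6.58 and 6.73 FPKM in young CR mice. It had 9.66, 6.05 and 9.67 FPKM in aged AL mice, against 8.02, 8.74 and 6.55 FPKM in young AL mice. The CR groups did not overlap, as was the case for 18.5% of all genes. In the AL groups 2 aged mice lay above all young mice, and mouse 14 below them.

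The log2 difference of Angpt1 was 0.35 over both diets (standard error 0.11, limma, unadjusted p = 0.0107, adjusted p = 0.175), and did not pass the test. It was 0.61 in CR mice (standard error 0.16, adjusted p = 0.153) and 0.09 in AL mice (adjusted p = 0.882). Without mouse 14 the difference in AL mice was 0.29 (adjusted p = 0.655), more than 1.5 times larger, and that in CR mice stayed at 0.61 with a standard error of 0.11 and passed (adjusted p = 0.0366). The difference over both diets was then 0.45 and passed (adjusted p = 0.0329), and it passed with a quality weight per mouse (0.45, adjusted p = 0.00872) and without mice 14 and 5 (0.46, adjusted p = 0.0454). These fits called 179 (1.32%), 1798 and 219 of all genes, where the fit of all 12 mice called 103. Mouse 14 had the lowest Angpt1 of the 12 mice and was left out or given the least weight in each of them. They were therefore not read as separate support. In CR mice, which do not include mouse 14, leaving it out changed the standard error and not the difference. Over both diets 0 of 9 members passed, beside 0.758% of all genes, and 1 had an unadjusted p under 0.05, beside 16.6%. In CR mice alone 0 of 9 passed, beside 0.361% of all genes, and in AL mice alone 0 of 9, beside 0.0662%.

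The other members differed little with age over both diets. Kitl and Ebf3 had the largest negative log2 differences, -0.18 and -0.17, with intervals of -0.43 to 0.07 and -0.47 to 0.14. Without mouse 14 they stood at -0.10 and -0.03. Vcam1 was at -0.14, and at 0.05 without mouse 14. Cxcl12 and Lepr were at -0.02 and -0.01, with intervals of -0.36 to 0.31 and -0.27 to 0.25, and at 0.12 and 0.10 without mouse 14. Pdgfra had 2.64, 3.38 and 3.23 FPKM in aged CR mice, all above the 2.58, 2.6 and 2.56 FPKM of young CR mice. It had 2.72, 2.84 and 2.52 FPKM in aged AL mice, against 3.27, 2.52 and 2.38 FPKM in young AL mice, which overlapped. Its log2 difference was 0.19 in CR mice (adjusted p = 0.538) and 0.00 in AL mice (-0.03 without mouse 14). The aged and young CR mice did not overlap for 2 of 9 tested members, Angpt1 and Pdgfra, a share close to the 18.5% of all genes.

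Megakaryocytes also make angiopoietin 1, and a list of 8 of their markers, added after the values were seen, is given beside Angpt1. The markers were Pf4, Ppbp, Itga2b, Itgb3, Gp9, Gp1bb, Treml1 and Vwf, the last shared with endothelium, and none was listed at 0 in any mouse. Their sum ranged from 1520 to 2351 FPKM in aged CR mice, against 860 to 1061 FPKM in young CR mice, and from 1261 to 1936 FPKM in aged AL mice, against 1302 to 1528 FPKM in young AL mice. In CR mice all 8 had a positive age difference with a median of 1.01, where that of all genes was -0.02, and Pf4 and Ppbp, both platelet chemokines, passed the test at 1.02 and 1.13 (limma, adjusted p = 0.0431 for each), beside 0.361% of all genes. Over both diets the median was 0.64, with -0.02 over all genes, and 0 of 8 passed. Without mouse 14 it was 0.76, again with -0.02 over all genes, and 8 of 8 passed, beside 1.32% of all genes. For diet in young mice the median was -0.39, with 0.01 over all genes, and Angpt1 stood at -0.17. The part of megakaryocytes in the Angpt1 level was not tested.

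**Figure D5:**
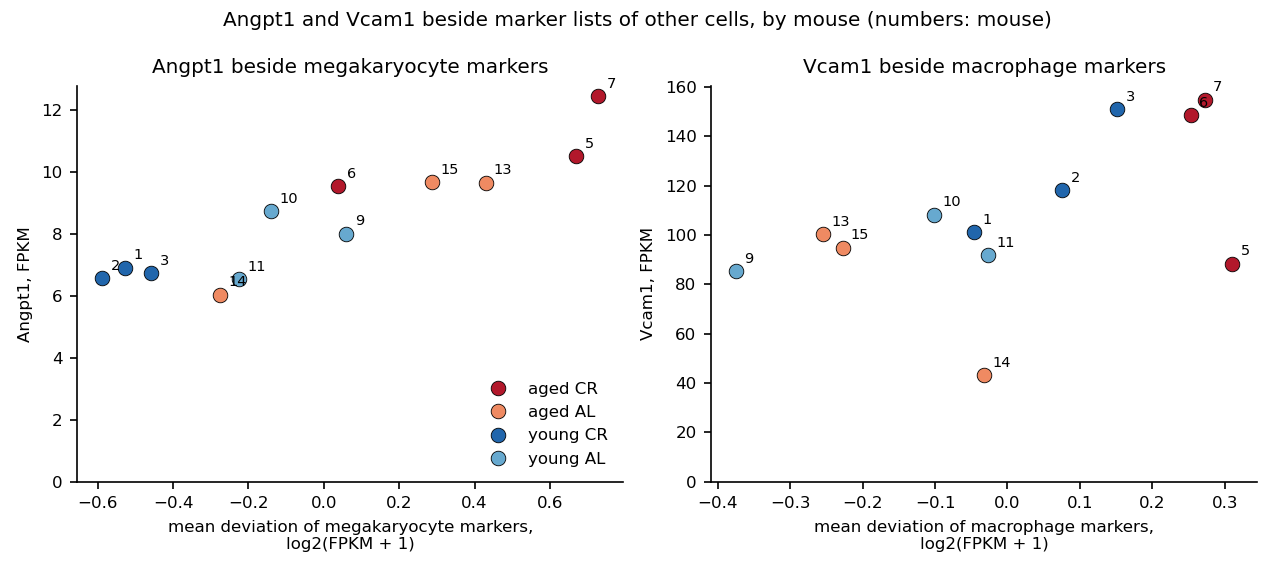
Left, Angpt1 FPKM (vertical axis) against the mean log2 deviation of 8 megakaryocyte markers, and right, Vcam1 FPKM against the mean log2 deviation of 8 macrophage markers, with 1 numbered point per mouse colored by group. The 3 aged CR mice lie at 9.55 to 12.5 FPKM of Angpt1 and the 3 young CR mice at 6.58 to 6.92 FPKM, and in the right plot mouse 14 is lowest at 43.3 FPKM of Vcam1 and mouse 5 combines a high macrophage value with 88.3 FPKM.

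The third question was whether the CR difference depends on age. None of 9 members passed for the interaction, as none of all genes did (0%), and 1 had an unadjusted p under 0.05, Angpt1, beside 4.23% of all genes. The CR difference of Angpt1 was 0.34 in aged mice and -0.17 in young mice, an interaction of 0.52 (standard error 0.23, limma, unadjusted p = 0.0447, adjusted p = 0.999). With mouse 14 left out, the CR difference of Angpt1 in aged mice was 0.14 and the interaction 0.32 (unadjusted p = 0.0844). The 8 megakaryocyte markers had a median CR difference of 0.33 in aged mice and -0.39 in young mice. Their median interaction was 0.76, and 0.52 without mouse 14, and none of them passed for it. All 9 members had a larger CR difference in aged than in young mice, where 47.7% of all genes did, with a median interaction of 0.19. Without mouse 14 the median was -0.02, so this tilt rested on that mouse.

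The partners of the members on other cells were measured in the same libraries. Of 18 receptors and ligands paired with them, 16 were tested and none passed for diet or for age, beside 0.258% and 0.758% of all genes. Cxcr4, the receptor of CXCL12, averaged 74.6 ± 5.43 FPKM in aged CR mice and 69.3 ± 15.3 FPKM in aged AL mice, and 80.0 ± 8.19 FPKM in young CR mice and 78.9 ± 0.520 FPKM in young AL mice. Kit, the receptor of the Kitl product, averaged 7.50 ± 1.66 FPKM in aged CR mice and 8.51 ± 2.57 FPKM in aged AL mice, and 8.12 ± 1.39 FPKM in young CR mice and 8.49 ± 1.13 FPKM in young AL mice. Its log2 difference for diet was -0.10 (adjusted p = 0.792), while that of Kitl was 0.40.

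Dpp4, a membrane protease that cuts CXCL12, had the smallest diet p among these partners. It had 2.34, 1.78 and 1.21 FPKM in aged CR mice, against 2.71, 2.08 and 3.82 FPKM in aged AL mice. It had 3.02, 2.5 and 2.51 FPKM in young CR mice, against 4.60, 3.98 and 4.25 FPKM in young AL mice. The young groups did not overlap and the aged groups did. The log2 difference was -0.50 over both ages (limma, adjusted p = 0.103), and Dpp4 was the 1 partner called lower without mouse 14 (-0.57, adjusted p = 0.0490), beside 1.05% of all genes called in either direction. The growth factor genes Pdgfc and Pdgfd, whose products bind the receptors encoded by Pdgfra and Pdgfrb, differed by 0.35 and 0.22 with diet (adjusted p = 0.182 and 0.198). For age, Il2rg, the common chain of the interleukin 7 receptor, differed by 0.36 (adjusted p = 0.0519) and Csf1r, the receptor of Csf1, by 0.38 (adjusted p = 0.127).

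Among 18 further genes of the stromal cells, 1 was higher with CR at both ages together, Lpl, the lipase that frees fatty acids from lipoproteins, which is also an adipocyte gene. It had 49.0, 52.8 and 59.4 FPKM in aged CR mice, against 33.8, 37.7 and 31.8 FPKM in aged AL mice. In young mice it had 54.8, 60.1 and 55.6 FPKM with CR, against 33.7, 26.1 and 30.8 FPKM with AL. The groups did not overlap at either age. The log2 difference was 0.76 (limma, adjusted p = 0.00316), at 0.63 in aged mice (adjusted p = 0.198) and 0.90 in young mice (adjusted p = 0.0144). Over the list, 14 of 18 genes had a positive difference with a median of 0.22, and 0.11 without mouse 14, where the 9 members had 7 positive, with 50.8% of all genes positive. Ebf1, the partner factor of Ebf3, went the other way at -0.34 (adjusted p = 0.340). Without mouse 14 it was lower with CR at -0.50 over both ages (limma, adjusted p = 0.00729) and at -0.61 in young mice (adjusted p = 0.0285), while Lpl, Trf and Adipoq were higher over both ages. The early B cell markers listed below were also lower with CR, at a median of -0.83, and -1.15 without mouse 14. The part of early B cells in the Ebf1 level was not tested. Of 7 tested adipocyte markers, 3 (Adig, Retn and Cidec) rose with diet and the median was 1.35, beside Kitl at 0.40 and Lepr at -0.07.

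Signalling below the leptin receptor was followed with 9 genes, of which 8 were tested and none passed. Lep itself was listed at 0.636 ± 0.455 FPKM in aged CR mice and 0.336 ± 0.111 FPKM in aged AL mice, and at 0.715 ± 0.358 FPKM in young CR mice and 0.237 ± 0.0786 FPKM in young AL mice, below the level for testing. Stat3, the main transcription factor of the pathway, differed by 0.24 with age (limma, adjusted p = 0.0821) and by -0.05 with diet. Socs3, the feedback inhibitor, differed by -0.38 with diet and 0.43 with age (adjusted p = 0.409 and 0.293). Mouse 14 had 15.5 FPKM of Socs3, against 5.62 and 6.30 FPKM in the other aged AL mice, and without it the differences were -0.17 and 0.22. Of 20 other niche factors, found under 21 identifiers because Ccl19 is listed under 2, 12 were tested and none passed. Igf1, the growth factor, had the smallest diet p, with a difference of 0.40 (adjusted p = 0.196).

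Lists of the other cells of the bone are given for the background of the members. Of 10 endothelial markers, Pecam1, an endothelial and platelet adhesion molecule, rose with age by 0.34 on the log2 scale (limma, adjusted p = 0.0487), and missed the threshold without mouse 14 (0.31, adjusted p = 0.0566). Of 6 tested fibroblast and periosteal markers, Lum, a matrix proteoglycan, fell by 0.87 with age (a difference of -0.87, adjusted p = 0.0429), and without mouse 14 also passed as lower with CR (-0.55, adjusted p = 0.0498). Of the adipocyte markers Plin4, a lipid droplet protein, rose by 0.58 (adjusted p = 0.0429). None of 6 tested mural cell markers, 9 osteoblast and osteocyte markers, 6 skeletal muscle markers, 8 early B cell markers or 6 stem and progenitor markers passed in any of the 5 comparisons of the design with all 12 mice. Without mouse 14, Vpreb3, Rag1 and Pax5 of the early B cell list and Bglap of the osteoblast list passed as lower with CR, Sost and Mepe of the osteocytes as lower with age, and Meis1 of the stem and progenitor list as higher with age. The early B cell markers, whose cells depend on CXCL12 and interleukin 7, had a median difference of -0.83 with diet and -1.01 with age (-1.15 and -0.75 without mouse 14), and the stem and progenitor markers had 0.13 and 0.16. The mural cell markers, of cells that wrap vessels beside the niche cells, had a median of 0.16 with diet.

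For each tested member the genes with the most similar values over the 12 mice were looked up by Pearson correlation of log2(FPKM + 1), as a description over mice that share 4 groups and, in most cases, the low values of mouse 14. Kitl was most like Ism1 (r = 0.967), Pik3ip1 and Srpx2, and Ism1, which encodes a secreted protein, differed with diet by 0.59 (limma, adjusted p = 0.0981). Vcam1 was most like Slco2b1, a transporter of organic anions, at 0.975, then Slc7a8 and Chrdl1, a BMP antagonist of stromal cells. Angpt1 was most like Slc44a1, a choline transporter, at 0.976, then Gng11 and Sdpr, and without mouse 14 these 3 stood at 0.972, 0.956 and 0.980. The closest genes to Cxcl12 were Fbln5, Ogn and Gas6, at 0.911 to 0.930. Without mouse 14 they stood at 0.684 to 0.754. Lepr had its closest genes in Itih5, Aplf and Mfap2, at 0.849 to 0.884. Ebf3 had Ypel3, Grem1, a BMP antagonist, and Slc26a7, and Csf1 had Arhgef18, Nfatc1 and Abhd14b. Pdgfrb had Map4k2, Cables2 and Dalrd3, and Pdgfra had Lztr1, Serpine2 and Slc39a13, which kept 0.943, 0.938 and 0.868 without mouse 14. No gene was among the 3 closest of more than 1 member.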

How the data were processed

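RNA of whole mouse tibiae was sequenced after stranded mRNA library preparation (TruSeq). Per the submitters' processing notes and the methods, reads were checked with FastQC 0.11.8 and MultiQC 1.6, trimmed with Trim Galore 0.5.0, aligned to mm10 with STAR 2.6.1 and quantified with StringTie 2.1.3b. The deposited FPKM values carry the authors' quantile normalization (R 4.1.1), so every mouse sums to 636210 FPKM and a change in total mRNA cannot be seen. FPKM carry no read counts, so depth is unknown and precision is the spread between mice. The sources used here do not say how the 4 technical repeats of a mouse were merged.

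Values were transformed as log2(FPKM + 1), and genes averaging 1 FPKM or more over the 12 mice were fitted in limma 3.58.1 (R 4.3.3), with 4 group means, a mean-dependent prior and Benjamini-Hochberg adjustment over 13590 genes. The script was tested on simulated data. With 3 mice per group an exact test cannot go below p = 0.1. Positions came from GENCODE M21, a release the authors do not name, in which 99.39% of identifiers were found. The members, lists and naming rule (all members, called list genes or those with the smallest p, and the 3 closest genes by correlation) were chosen with earlier results of these data known. Age within each diet, ratios to Lepr and megakaryocyte markers were chosen after these values were seen. Alternatives were another pseudocount, no filter, size factors, quality weights, fits of the compared groups, an unequal-variance test and leaving out mice.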

Additional observations from a re-analysis of the deposited data

How the results depend on the processing

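No paired analysis was possible because the groups share no mouse numbers, and the numbers that the labels share are technical repeats held in 1 column per mouse. No member was called in young mice, in aged mice or for the interaction under any alternative run. With mouse 14 (aged AL) and mouse 5 (aged CR) both left out, 2 members (Kitl and Vcam1) were called for diet over both ages and 1 (Angpt1) for age, and 1 (Angpt1) was called for age with a quality weight per mouse. Mouse 5 had the lowest Kitl and Vcam1 of the CR mice, so leaving it out removed the CR mouse nearest to the AL mice, and the calls of Kitl (0.39, adjusted p = 0.0292) and Vcam1 (0.50, adjusted p = 0.0446) were not read as support. Leaving out each mouse in turn, 0 to 1 members were called for age, the 1 being Angpt1 without mouse 14. The fits that called Angpt1 left out mouse 14, which had its lowest value, or gave it the least weight, and were not read as support either.

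Each log2 difference of a member was counted separately under each alternative that gave it. Of these values, 72 changed sign and 5 passed the test in place of missing it. The remaining 812 kept their direction and side or, for Il7, moved by less than the spread between mice. None of those that changed sign had passed the test. The sign changes with a quality weight per mouse were, for age, Cxcl12 at 0.24, Lepr at 0.12, Vcam1 at 0.17, Ebf3 at 0.035, Pdgfrb at 0.054 and Csf1 at 0.095. For diet they were Ebf3 at -0.16 and Pdgfrb at -0.083 in aged mice, Cxcl12 at -0.0033 and Csf1 at -0.033 in young mice and Pdgfrb at -0.066 over both ages. For the interaction they were Kitl at -0.0051, Lepr at -0.097 and Pdgfrb at -0.033. Without mice 14 and 5 they were, for age, Cxcl12 at 0.16, Lepr at 0.15, Vcam1 at 0.18, Pdgfrb at 0.029 and Csf1 at 0.066. For diet they were then Ebf3 at -0.16 and Pdgfrb at -0.086 in aged mice and Angpt1 at -0.0060 and Pdgfrb at -0.072 over both ages. For the interaction they were Lepr at -0.038, Pdgfrb at -0.028 and Csf1 at -0.027. With size factors Lepr stood at 0.013 for age. In CR mice alone the age difference was 0.099 for Cxcl12, 0.034 for Lepr, 0.057 for Vcam1 and 0.025 for Pdgfrb, and in AL mice alone -0.0041 for Pdgfra.

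Leaving out each mouse in turn, the diet differences that changed sign ranged in aged mice from -0.0050 to 0.53 for Cxcl12, -0.24 to 0.12 for Lepr, -0.18 to 0.30 for Ebf3, -0.075 to 0.18 for Pdgfrb and -0.0061 to 0.40 for Csf1. In young mice they ranged from -0.012 to 0.098 for Cxcl12, -0.13 to 0.029 for Pdgfrb, -0.12 to 0.054 for Pdgfra and -0.036 to 0.29 for Csf1. Over both ages they ranged from -0.17 to 0.0079 for Lepr, -0.014 to 0.14 for Angpt1, -0.19 to 0.045 for Ebf3 and -0.067 to 0.059 for Pdgfrb. The age differences ranged from -0.14 to 0.12 for Cxcl12, -0.080 to 0.10 for Lepr, -0.25 to 0.051 for Vcam1, -0.092 to 0.034 for Pdgfrb and -0.18 to 0.022 for Csf1. The interactions ranged from -0.047 to 0.49 for Cxcl12, -0.15 to 0.16 for Kitl, -0.14 to 0.23 for Lepr, -0.018 to 0.23 for Pdgfrb and -0.12 to 0.29 for Csf1. The causes were not tested.

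The counts over all genes moved more than those of the members. For diet over both ages 35 genes were called, 9 without a filter, 923 with quality weights, 442 without mice 14 and 5, and 8 to 223 leaving out each mouse. For age 103 were called, 44 without a filter, 1798 with quality weights, 219 without mice 14 and 5, and 21 to 219 leaving out each mouse. In young mice 9 were called, 304 with quality weights, 161 without mice 14 and 5, 74 in a fit of those groups alone and none with the unequal-variance test. In aged mice none was called, 193 with quality weights and 49 without mice 14 and 5. Depth is unknown, and 3 mice per group limit what can be seen.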
